A study of Mus musculus with 14 samples.

Results

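The *Krt* genes lie in a cluster on chromosome 11 and a cluster on chromosome 15, and their promoter contacts were followed in 14 promoter capture Hi-C (PCHi-C) libraries of mouse cranial neural crest cells (CNCCs). The members were the protein-coding genes of the mm10 GENCODE vM21 annotation whose symbol is *Krt* followed by digits only. Of 50 such symbols, 1 was not annotated as protein-coding, which left 49 genes, 25 on chromosome 11 and 24 on chromosome 15. Each of the 49 genes had its start site in a bait fragment of its own, out of 22171 baits in the series, 21626 of which held an annotated start site.

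Keratins are the intermediate filament proteins of epithelial cells, and they assemble as pairs of a type I and a type II chain. The type I genes form the chromosome 11 cluster and the type II genes the chromosome 15 cluster, except that the type I gene *Krt18* lies beside its type II partner *Krt8* on chromosome 15. Basal keratinocytes use *Krt5* with *Krt14*, the layers above them *Krt1* and *Krt2* with *Krt10*, simple epithelia *Krt8* with *Krt18*, and the hair follicle has sets of its own for the shaft and for the inner root sheath. CNCCs of the arches are mesenchymal, a state in which vimentin rather than keratin filaments prevail, so the loci were examined here outside the tissue that is known to use them.

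The study compared CNCCs at E10.5 from the frontonasal process (FNP), the maxillary process (Mx), the mandibular process (Md) and the second pharyngeal arch (PA2), PA2 CNCCs at E10.5 that lacked *Hoxa2*, and CNCCs of the pinna, the external ear that PA2 forms, at E12.5 and E14.5, with 2 replicates each. Wild-type cells came from *Wnt1::Cre;ROSA RFP* embryos and were sorted by the red reporter, which the *Wnt1* promoter switches on through Cre in crest progenitors. The knockout cells came from *Hoxa2 EGFP/EGFP* embryos and were sorted by the green reporter, so genotype and sorting reporter cannot be told apart. The methods give embryos of both sexes as pooled. Pinna and PA2 libraries differ in stage as well as tissue, and E14.5 tissue was dissociated with papain and all other tissue with trypsin. The methods describe the 2 PCHi-C replicates of each condition as biologically independent. Whether they were separate litters is not said in the sources used here, so the tests measure the spread between these libraries. PCHi-C holds no RNA, hence the crest label could not be set against expressed markers.

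In PCHi-C, HindIII fragments that lie together in the nucleus are joined, and the products that contain a promoter fragment, the bait, are captured. Each library came as a list of fragment pairs with a CHiCAGO score, a weighted log p-value against a background that falls with distance, and the lowest score listed was 5. A pair that a library did not list was given a score of 0. The same-chromosome pairs listed per library ranged from 113670 in knockout replicate 1 to 186248 in E12.5 pinna replicate 2, and read depth is unknown. In Md replicate 1 46.5% and in E12.5 pinna replicate 2 62.7% of all listed pairs joined different chromosomes, against 2.64% to 5.61% in the other 12 libraries. Results that rest on the libraries are therefore also given without these 2 libraries. The fragment ends were set against the GRCm38.p6 genome, and all 703 fragments of the keratin pairs had a HindIII site at both ends.

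RefSeq promoters, 250 bases before to 50 after the start, were found for 36 of the 49 keratin genes. A TATAAA box on the gene's strand occurred in 16 of the 36 (44.4%), against 2733 of 32851 promoters in all (8.32%). On the other strand the share was 8.33% among keratins and 6.95% overall. With the match limited to bases -50 to -11 before the start, it was present in 13 keratin promoters (36.1%) and in 2.40% of all promoters. The promoters of *Krt71*, *Krt73*, *Krt2* and *Krt26* are printed because these baits were called in a comparison added after the values were seen. It set PA2 and pinna against FNP, Mx and Md, and is given below with its limits. Those of *Krt10*, the type I keratin of the differentiating epidermis, and *Krt23* are printed because their baits were at an end of the strongest pairs. The promoters lie, in the order printed, at chr15:101743048-101743347, chr15:101802311-101802610, chr15:101818120-101818419, chr11:99337916-99338215, chr11:99389315-99389614 and chr11:99493071-99493370 of GRCm38.p6, all on the minus strand. Capitals mark TATAAA, and these letters are not in the windows of *Krt2* and *Krt23*.
Krt71: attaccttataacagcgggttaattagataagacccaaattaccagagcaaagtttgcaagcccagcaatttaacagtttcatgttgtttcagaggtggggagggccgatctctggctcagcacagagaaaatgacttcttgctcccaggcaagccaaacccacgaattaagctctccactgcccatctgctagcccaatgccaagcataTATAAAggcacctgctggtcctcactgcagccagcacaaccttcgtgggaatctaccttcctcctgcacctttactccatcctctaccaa
Krt73: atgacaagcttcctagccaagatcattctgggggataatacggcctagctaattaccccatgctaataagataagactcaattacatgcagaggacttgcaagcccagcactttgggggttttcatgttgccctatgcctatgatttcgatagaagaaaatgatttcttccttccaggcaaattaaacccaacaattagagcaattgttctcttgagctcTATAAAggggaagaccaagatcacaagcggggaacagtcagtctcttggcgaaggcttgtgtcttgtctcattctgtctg
Krt2: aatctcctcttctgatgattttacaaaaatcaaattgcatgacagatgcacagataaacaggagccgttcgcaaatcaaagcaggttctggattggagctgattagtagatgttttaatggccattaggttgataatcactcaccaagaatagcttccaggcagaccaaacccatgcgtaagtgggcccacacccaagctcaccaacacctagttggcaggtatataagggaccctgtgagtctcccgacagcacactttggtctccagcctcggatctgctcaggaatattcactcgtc
Krt26: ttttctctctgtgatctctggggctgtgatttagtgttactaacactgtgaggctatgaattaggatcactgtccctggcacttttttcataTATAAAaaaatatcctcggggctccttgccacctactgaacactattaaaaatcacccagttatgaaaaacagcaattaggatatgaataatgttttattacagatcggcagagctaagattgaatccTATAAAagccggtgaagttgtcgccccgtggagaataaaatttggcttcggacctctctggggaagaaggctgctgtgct
Krt10: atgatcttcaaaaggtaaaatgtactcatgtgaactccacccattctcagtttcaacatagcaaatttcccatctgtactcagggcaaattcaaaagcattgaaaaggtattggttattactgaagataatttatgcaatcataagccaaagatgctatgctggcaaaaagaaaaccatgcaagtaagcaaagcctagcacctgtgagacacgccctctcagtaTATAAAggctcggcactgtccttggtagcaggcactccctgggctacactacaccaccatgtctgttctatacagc
Krt23: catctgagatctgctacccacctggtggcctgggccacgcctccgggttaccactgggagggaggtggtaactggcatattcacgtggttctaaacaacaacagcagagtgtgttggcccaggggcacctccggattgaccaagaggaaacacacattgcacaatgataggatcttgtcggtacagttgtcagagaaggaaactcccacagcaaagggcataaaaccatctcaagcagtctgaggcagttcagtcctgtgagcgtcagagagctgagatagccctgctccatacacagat

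The keratin baits had many listed contacts, most of them long and inside the clusters. The median keratin bait had 19.1 listed pairs per library, as a mean over the 14 libraries, with quartiles of 12.9 and 26.7. Among the 17134 baits of the genome with a mean of at least 2 listed pairs, which all 49 keratin baits reached, the median was 6.14 with quartiles of 3.57 and 11.9. The chromosome 11 keratins had a median of 19.2 against 6.86 for all tested baits of chromosome 11, and the chromosome 15 keratins 19.1 against 6.79 for those of chromosome 15. The number listed followed bait length weakly across the 49 baits, which share libraries and neighbourhoods (Spearman rho of 0.18). Across the libraries, 3544 different same-chromosome pairs had a keratin bait, 1920 on chromosome 11 and 1624 on chromosome 15. Of these, 35.2% were listed in a single library, against 63.4% of the 837141 pairs of the genome, and 17.9% were listed in 7 or more libraries, against 10.4%. When only pairs within 2 Mb were counted, 31.2% of keratin pairs and 49.8% of all pairs were listed in a single library.

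Keratin contacts kept to a narrow band of distances. Of the keratin pairs, 80.2% spanned between 300 kb and 1000 kb, against 30.6% of all pairs, and 40 pairs (1.13%) were shorter than 100 kb, against 5.74%. The median distance was 554 kb with quartiles of 403 kb and 733 kb. Beyond 2 Mb there were 204 keratin pairs, 5.76% against 32.8% of all pairs, and none of them was listed in more than 1 library. E12.5 pinna replicate 2 held 86 and Md replicate 1 held 39 of them. The share of keratin pairs with a partner between the first and the last keratin gene of the cluster had a median of 80.9% over the libraries and ranged from 69.7% in E12.5 pinna replicate 2 to 84.8%. No library listed a pair of a chromosome 11 and a chromosome 15 keratin bait, so the type I and type II genes whose products pair in the filament had no listed contact across the clusters. Few keratin pairs with any other chromosome were listed, 1 to 12 per library outside Md replicate 1 and E12.5 pinna replicate 2. Lists this short cannot show that the clusters were apart.

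**Figure D1:**
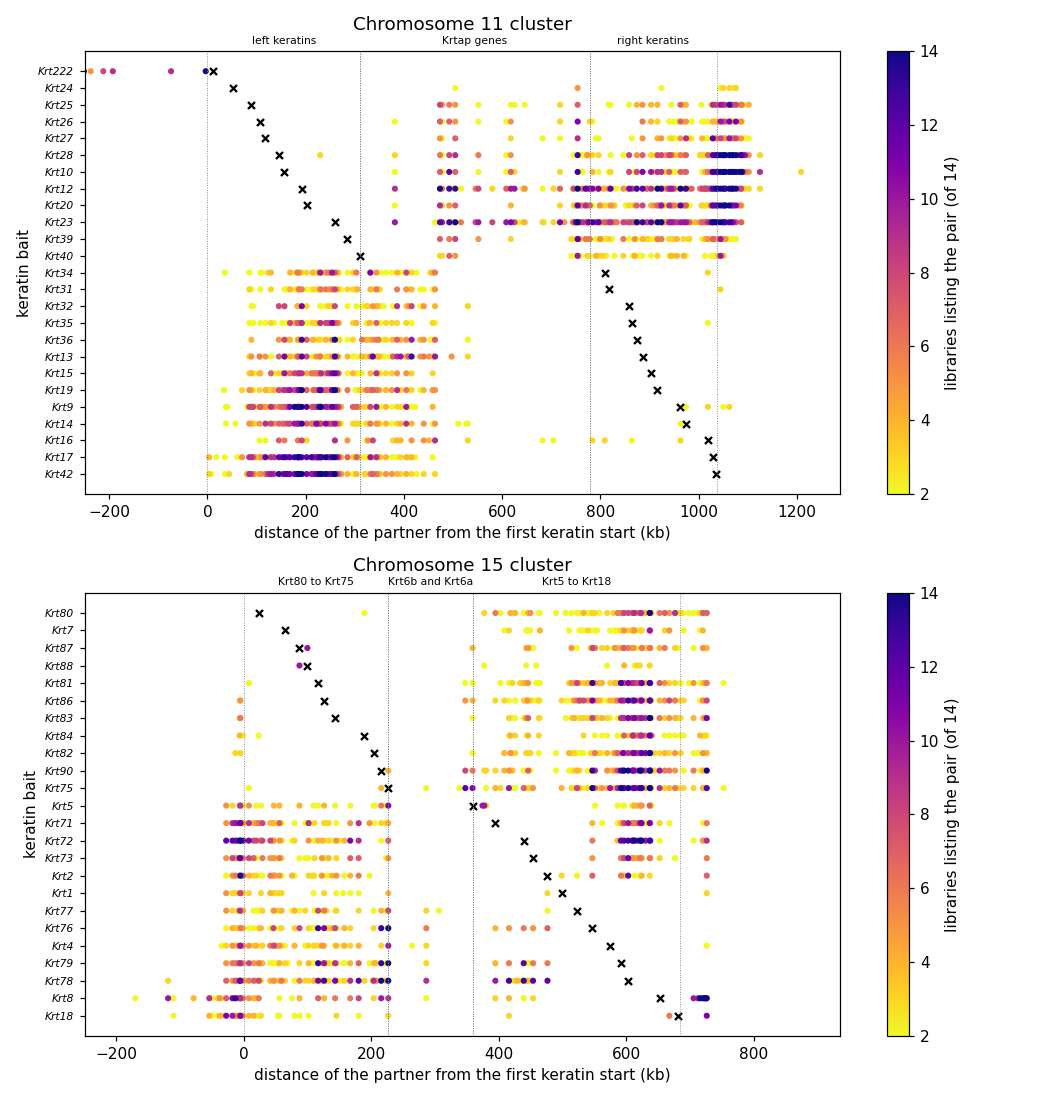
Partners of each keratin bait (rows, in map order) by distance in kb from the first keratin start of the chromosome 11 (top) and chromosome 15 (bottom) cluster. Dots are pairs listed in 2 or more of 14 libraries, coloured by their number of libraries, crosses are the baits, and dotted lines bound the blocks. Left and right baits met each other's blocks, and few dots lie near the crosses.

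On chromosome 11 the type I genes form a left block from *Krt222* to *Krt40* and a right block from *Krt34* to *Krt42*, with 468 kb of keratin-associated protein (*Krtap*) genes, which encode the matrix of the hair shaft, between them. The contacts ran from block to block across the *Krtap* genes. Of pairs listed in at least 7 libraries, left baits had 103 with the right block and 72 with the flank beyond *Krt42*. They had 59 with the *Krtap* region, 6 with the flank before *Krt222* and none with the left block itself. The 13 right baits had 187 such pairs with the left block, 27 with the *Krtap* region and none with the right block. Per library, the right baits had between 142 and 297 pairs with the left block and between 0 and 8 with their own. Each left-to-right pair of 2 keratin baits counts once from each side. Of the 300 possible bait pairs of the cluster, 122 (40.7%) were listed in some library, 54 in at least 7 and 7 in all 14.

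The strongest keratin pair joined the bait of *Krt23*, a type I keratin of simple epithelia at chr11:99489071-99495393, to the fragment with the start of *Krtap16-1* at chr11:99984242-99988569, 494 kb away. Its score was 16.1 and 40.7 in FNP, 26.1 and 50.5 in Mx, 39.9 and 35.0 in Md, 20.1 and 36.1 in PA2, 22.3 and 27.6 in the knockout, 31.4 and 25.5 in E12.5 pinna and 34.8 and 33.4 in E14.5 pinna, with a median of 32.4. The pair was thus listed in all 14 libraries, with the lowest score in FNP replicate 1 and the highest in Mx replicate 2. The other 9 of the 10 pairs with the highest medians joined *Krt28*, *Krt10* or *Krt12*, which serve the inner root sheath, the differentiating epidermis and the cornea, to 4 fragments, and each was listed in all 14 libraries. The fragment chr11:100290988-100299436, beyond *Krt42* and with the starts of the non-coding genes *Gm14206* and *Gm12349*, had a median score of 23.0 with *Krt10*, 22.0 with *Krt28* and 21.6 with *Krt12*, at distances of 906 kb, 917 kb and 870 kb. Across libraries its score with *Krt10* ran from 14.9 to 34.5. The neighbouring fragment chr11:100272152-100282159 had a median score of 20.3 with *Krt28*, and its lowest of 12.2 was in knockout replicate 1. The *Krtap16-1* fragment was also met by *Krt12* with a median of 18.8, from 5.90 in E12.5 pinna replicate 2 to 39.5 in Mx replicate 1. Both knockout libraries were lowest for 4 of the 10 pairs, namely *Krt28* with chr11:100290988-100299436 and with chr11:100282160-100283901, and *Krt10* and *Krt12* with chr11:100272152-100282159. For the last of these the knockout scores were 9.42 and 9.19 and the lowest of the other 12 was 13.4. Over the 69 keratin pairs listed in all 14 libraries both knockout libraries were lowest for 7 (10.1%), against 11.0% of the 15520 such pairs of the genome, so the keratin share was near that of all pairs. The knockout lists were also the 2 shortest, and single pairs were not tested between the genotypes.

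**Figure D2:**
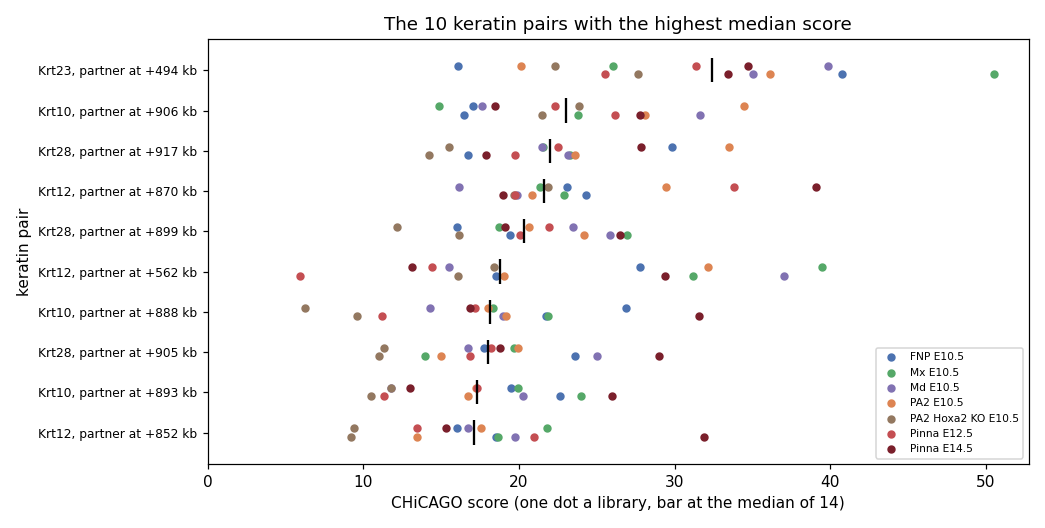
CHiCAGO scores (x axis, dimensionless) of the 10 keratin pairs with the highest median over 14 libraries (rows, named by the keratin bait and the signed distance of the partner). Each dot is a library coloured by condition and bars are medians; all lie above the listing limit of 5, and the medians run from 32.4 down to 17.1.

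The baits of *Krt23* and *Krt12* were the most widely shared partners in the left block. *Krt23* was listed in at least 7 libraries with all 13 right-block keratins, and *Krt12* with 11 of them. The strongest keratin-to-keratin pair was *Krt23* with *Krt13*, the type I keratin of oral and oesophageal mucosa, at 626 kb, with a median score of 12.04 and a listing in 13 libraries. The next was *Krt12* with *Krt17*, a keratin of stressed and appendage epithelium, with a median of 11.3 in 12 libraries. *Krt10* met *Krt14*, its basal-layer counterpart, over 817 kb in 7 libraries, with a highest score of 7.54. By contrast, *Krt14* and *Krt16*, *Krt14* and *Krt17*, *Krt16* and *Krt17*, and *Krt14* and *Krt15*, which lie between 9.96 kb and 71.1 kb apart, were listed together in none. A pair that was not listed scored below 5 against a background that is highest for near fragments, which does not show that the fragments were apart.

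On chromosome 15 the contacts likewise joined the outer parts of the cluster, over the region of *Krt6b* and *Krt6a*. The 11 baits from *Krt80* to *Krt75* had 122 pairs in at least 7 libraries with the block from *Krt5* to *Krt18*, and 2 within their own block. The 13 baits from *Krt5* to *Krt18* had 50 such pairs with the block from *Krt80* to *Krt75*, 38 with the flank before *Krt80*, 34 within their own block and 11 with the flank after *Krt18*. The within-block count differed in this respect from both blocks of chromosome 11, which had 0. The fragment chr15:101983356-101984466, which holds no annotated start site and lies between *Krt78* and *Krt8*, was met by 12 keratin baits in at least 7 libraries, among them *Krt80*, *Krt7*, *Krt5* and *Krt71*. Its scores were highest with the hair keratins *Krt82* and *Krt84*, with medians of 11.1 and 10.8. The fragment chr15:101942843-101944902 was met by 12 keratin baits as well, and chr15:101341288-101342537, just before *Krt80*, by 11, from *Krt5* to *Krt18*. The strongest bait-to-bait pair was *Krt75*, a keratin of the companion layer of the hair, with *Krt78* at 376 kb, with a median score of 10.52 and a range of 7.75 to 13.7 over 14 libraries.

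*Krt8* and *Krt18*, the pair of simple epithelia, lie 28.8 kb apart by their baits and were not listed together in any library. *Krt8* had its strongest partner at chr15:102065677-102068967, 67.8 kb beyond it on the side of *Krt18*, with scores between 10.0 and 16.3 in all 14 libraries. *Krt18* had its strongest partner on the far side of the cluster, at chr15:101314073-101325049, 709 kb away, with a median score of 7.84 in 11 libraries. The fragment with the start of *Eif4b*, which encodes a translation initiation factor, was met by 9 keratin baits, *Krt8* and *Krt18* included.

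The CTCF core motif, the 12-base centre of the site bound by the insulator protein CTCF, was searched on both strands of the 20 fragments that the most keratin baits met. It matched in 1 of them, chr15:101984467-101985206, which 9 baits met and which adjoins the fragment with 12 baits. Windows of its length held a match in 0.345% of chromosome 15. For the 20 fragments this share ran from 0.322% to 6.87%, depending on length and chromosome. Whether 1 match among 20 exceeds their joint background was not tested. Beyond these 20, the search was extended only to the far partner of *Krt18* and to the *Krt28* bait. Each held a match, against 4.95% of windows of its length on chromosome 15 for the former and 7.39% on chromosome 11 for the latter. Both were picked singly, so their matches give no share over other partners or baits. The matches are shown with 24 bases on each side, read along the strand of the motif, with the motif in capitals. They lie at chr15:101984489-101984548 and chr15:101315940-101315999 on the minus strand and at chr11:99379739-99379798 on the plus strand of GRCm38.p6.
fragment beside the shared chromosome 15 partner: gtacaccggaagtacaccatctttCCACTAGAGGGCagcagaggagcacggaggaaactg
far partner of Krt18: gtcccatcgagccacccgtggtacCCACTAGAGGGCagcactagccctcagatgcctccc
Krt28 bait: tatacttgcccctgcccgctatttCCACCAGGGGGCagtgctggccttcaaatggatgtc

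By use, the groups of keratins overlapped widely in contact number. The 6 keratins of simple and ductal epithelium had between 11.0 (*Krt7*) and 60.8 (*Krt23*) listed pairs per library, with a median of 25.4. The 6 of basal and stress-responsive layers had a median of 24.0 and ran from 9.86 (*Krt16*) to 40.7 (*Krt17*), with *Krt14* at 26.6 ± 6.77 and *Krt5* at 12.9 ± 5.42 (SD over 14 libraries). The 6 of the upper epidermis and cornea had a median of 24.3, from 6.86 (*Krt1*) to 53.3 (*Krt12*). The 8 of the root sheaths had a median of 21.4, the 13 of the hair shaft 15.2 and the 3 of oral and oesophageal mucosa 14.9. The highest means were those of *Krt23* with 60.8 ± 14.3, *Krt12* with 53.3 ± 8.32, *Krt17* with 40.7 ± 4.98, *Krt42* with 39.8 ± 6.82 and *Krt9*, the keratin of palm and sole skin, with 35.6 ± 5.87. The lowest were those of *Krt24* with 2.64 ± 1.39, *Krt88* with 4.21 ± 1.76, *Krt1* with 6.86 ± 2.96, *Krt222* with 7.57 ± 2.03, and *Krt16* and *Krt77* with 9.86 each. At each end of the order, neighbours among these named baits differed by less than the larger of their SDs, except that *Krt12* lay above *Krt17* by more than either SD. *Krt222*, the leftmost gene, was set apart by its partners, since its strongest was the fragment with the start of *Smarce1*, a chromatin remodelling subunit, 15.6 kb to the left, with scores of 12.1 to 17.0 in all 14 libraries. In the heat map of contact numbers the rows differ more than the columns.

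**Figure D3:**
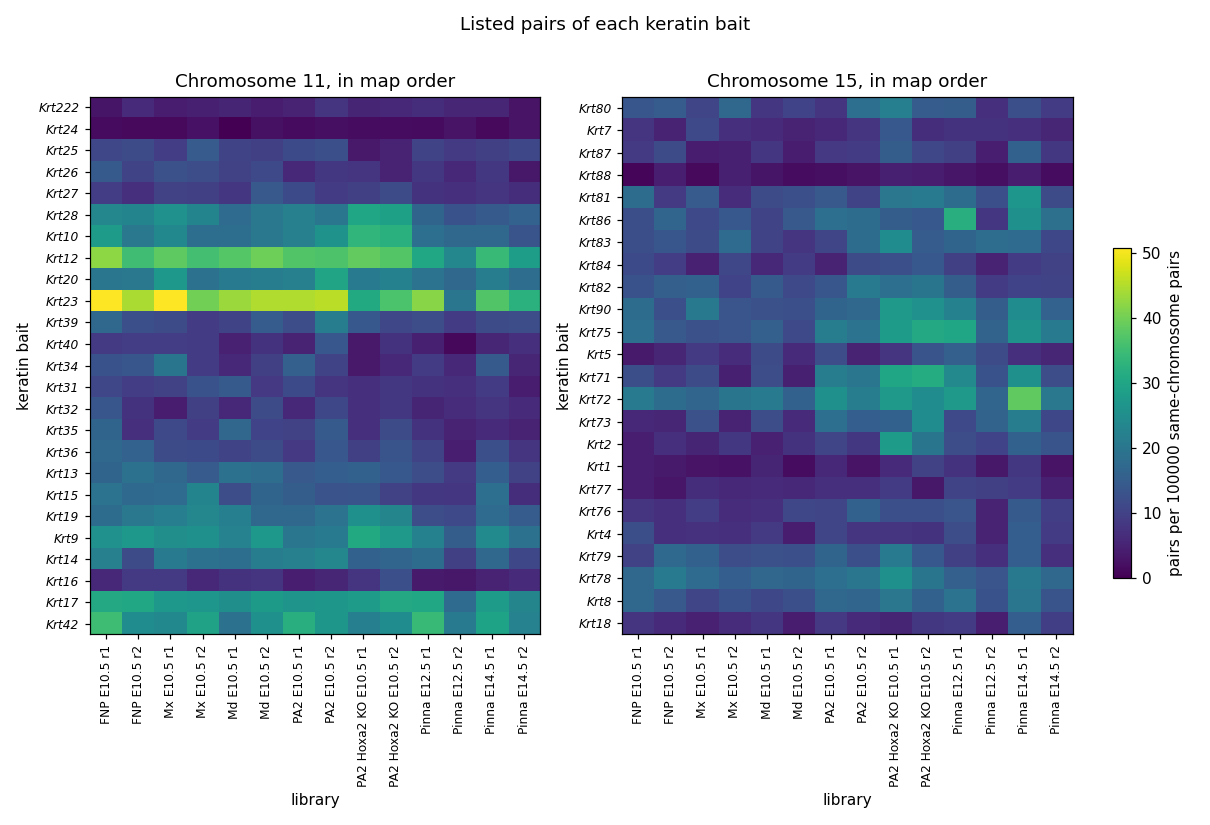
Listed pairs per 100000 same-chromosome pairs of the library (colour) for each keratin bait (rows, in map order) in each of 14 libraries (columns; r1 and r2 are replicates 1 and 2). Krt23 and Krt12 stay highest on chromosome 11 in most columns, and Krt71, Krt73 and Krt2 on chromosome 15 are brighter in PA2, the knockout and part of the pinna libraries.

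Summed over each cluster, the chromosome 15 keratins had more listed pairs in second-arch cells and the chromosome 11 keratins fewer in the pinna, relative to the size of each list. The chromosome 15 cluster had 234 ± 5.61 pairs per 100000 same-chromosome pairs in FNP, 219 ± 9.97 in Mx and 203 ± 21.3 in Md (SD, n = 2). It had 279 ± 2.74 in PA2, 351 ± 20.6 in the knockout, 268 ± 76.8 in E12.5 pinna and 298 ± 85.0 in E14.5 pinna. All PA2 and knockout libraries therefore lay above all FNP, Mx and Md libraries, while E12.5 pinna replicate 2, at 214, lay among the latter and E14.5 pinna replicate 2, at 237.8, was level with their highest value, 237.6. The chromosome 11 cluster had between 352 and 425 in the FNP, Mx, Md and PA2 libraries, 355 and 371 in the knockout, 321 and 234 in E12.5 pinna and 341 and 276 in E14.5 pinna. Per 100000 pairs, all 4 pinna libraries lay below all others on chromosome 11. Before division by list size this was not so, since the pinna libraries listed 431, 435, 497 and 503 pairs and the knockout 404 and 448. On chromosome 15 the undivided counts were 389 or more in all 8 second-arch libraries, knockout included, and 378 or fewer in FNP, Mx and Md. Per 100000 pairs, E12.5 pinna replicate 2 was the lowest library on chromosome 11. Its list has the largest total and the largest share of pairs between chromosomes. These sums are descriptions and have no test.

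**Figure D4:**
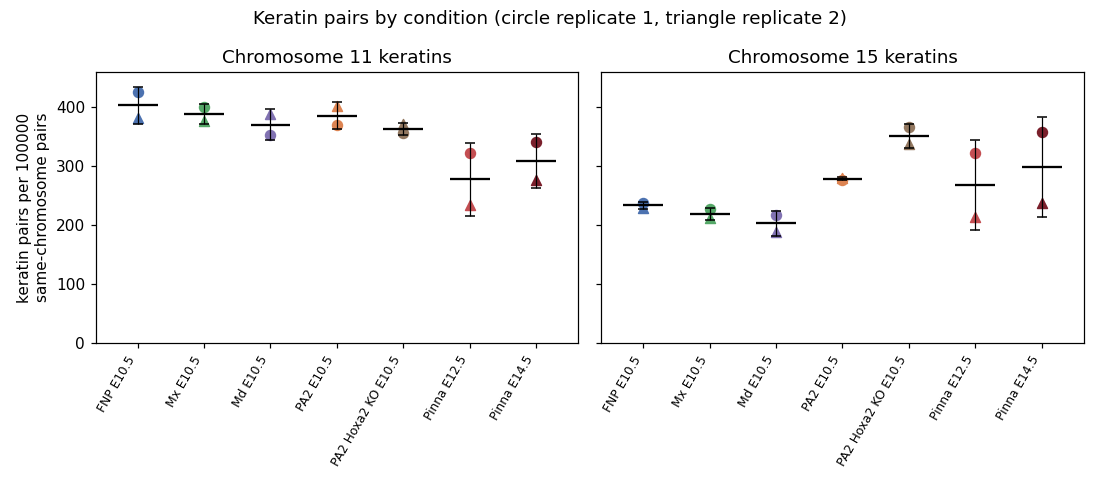
Keratin pairs per 100000 same-chromosome pairs of the library for the chromosome 11 (left) and chromosome 15 (right) keratins by condition. Points are libraries, bars the mean and whiskers the SD of 2 replicates; on chromosome 15 PA2 and the knockout lie above FNP, Mx and Md, and on chromosome 11 the 4 pinna libraries are lowest.

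To ask which single keratin promoters changed their contact number, limma was fitted to log2 of the listed pairs per bait, after an offset of 0.5 and scaling to the library's same-chromosome total, with p-values adjusted over all 17134 baits. Between the 7 conditions, 1 of 49 keratin baits, *Krt2*, passed the adjusted p threshold of 0.05 (2.04% of them), against 820 baits overall (4.79%). Without Md replicate 1 and E12.5 pinna replicate 2, 3 keratins passed (*Krt75*, *Krt71* and *Krt2*), while the share over all baits was 5.73%. At an unadjusted p below 0.05 there were 14 keratins and 3659 baits overall. In the comparison of PA2 with the mean of FNP, Mx and Md no keratin passed, where no bait of the genome did (percent called of 0), and at an unadjusted p below 0.05 there were 5 keratins and 1098 baits. In pinna against PA2 no keratin passed, against 2.54% of all baits, with 6 keratins and 2779 baits at an unadjusted p below 0.05. In E14.5 against E12.5 pinna none passed, against 0.14%, with 2 keratins and 1365 baits at an unadjusted p below 0.05. In knockout against wild-type PA2 none passed, against 0.572%, with 4 keratins and 2004 baits. The knockout comparison came closest with *Krt25*, a type I keratin of the inner root sheath, which was lower by a log2 difference of -1.41 ± 0.33 (SE), with a limma adjusted p of 0.0685. It passed under 6 of 11 other settings, among them the restriction to pairs within 2 Mb.

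*Krt2*, a type II keratin of the upper epidermis, had 6 and 11 listed pairs in FNP, 8 and 13 in Mx, 8 and 13 in Md, 15 and 12 in PA2, 32 and 24 in the knockout, 16 and 19 in E12.5 pinna and 23 and 24 in E14.5 pinna. The knockout and E14.5 pinna libraries were the highest, and the knockout did not overlap with wild-type PA2. Scaled to the lists, this was 24.0 ± 5.86 per 100000 in the knockout and 9.47 ± 1.70 in wild-type PA2 (SD, n = 2). The limma adjusted p over the 7 conditions was 0.0102. The knockout against wild-type difference itself, a log2 value of 1.30 ± 0.36 (SE), had an adjusted p of 0.13. The call between the 7 conditions was lost without knockout replicate 1, after which no keratin passed.

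**Figure D5:**
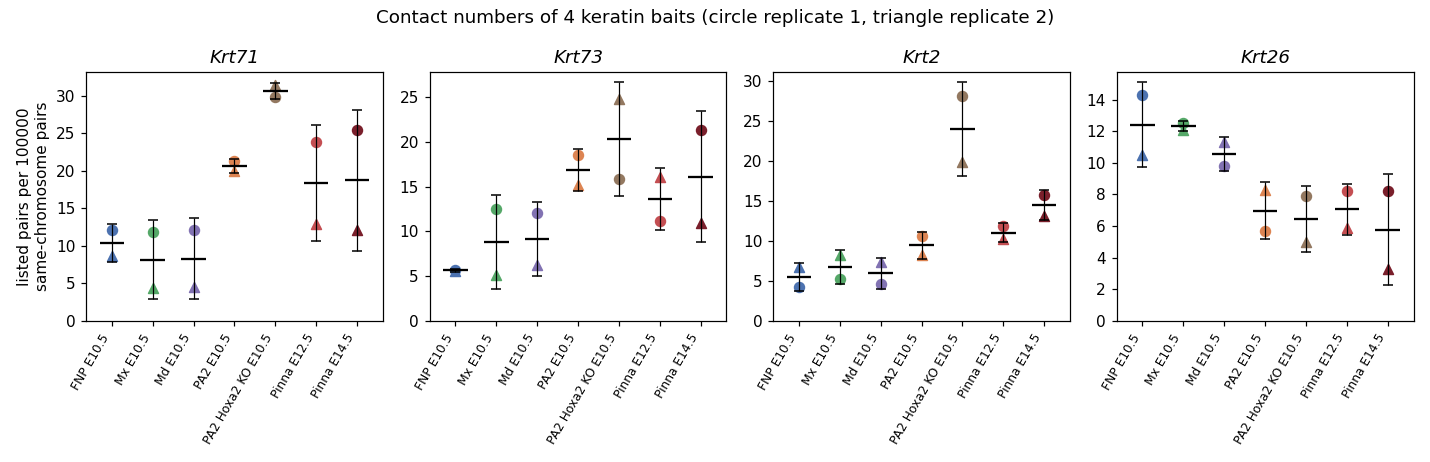
Listed pairs per 100000 same-chromosome pairs of the library for the Krt71, Krt73, Krt2 and Krt26 baits by condition. Points are libraries, bars the mean and whiskers the SD of 2 replicates; Krt26 is lower, and the other baits higher, in PA2 than in FNP, Mx and Md on average.

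A comparison added after these values were seen set the wild-type second-arch lineage, PA2 with both pinna stages, against FNP, Mx and Md in the same fit of 7 means. It uses values that also chose it, so its calls describe these libraries. By limma, higher contact numbers in the second-arch lineage were called for 3 keratin baits, *Krt71*, *Krt73* and *Krt2*, among 2.07% of all baits, and a lower number for 1, *Krt26*, among 2.14%. *Krt71* and *Krt73* encode type II keratins and *Krt26* a type I keratin of the inner root sheath. *Krt71*, *Krt73* and *Krt2* follow each other on chromosome 15, with *Krt72*, another root sheath keratin, between the first and the second of them.

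*Krt71* had 17 and 14 listed pairs in FNP, 18 and 7 in Mx, 21 and 8 in Md, 30 and 29 in PA2, 34 and 38 in the knockout, 32 and 24 in E12.5 pinna and 37 and 22 in E14.5 pinna. Every second-arch library thus listed more pairs than every FNP, Mx and Md library, but scaled to the lists E14.5 pinna replicate 2, at 12.08 per 100000, overlapped with FNP replicate 1 at 12.17 and Md replicate 1 at 12.11. The log2 difference was 1.14 ± 0.27 (SE), with a limma adjusted p of 0.0242. *Krt73* had 8 and 9 in FNP, 19 and 8 in Mx, 21 and 11 in Md, 26 and 22 in PA2, 18 and 30 in the knockout, 15 and 30 in E12.5 pinna and 31 and 20 in E14.5 pinna. Its groups overlapped, and its log2 difference was 1.01 ± 0.25 with an adjusted p of 0.0272. *Krt2* had a log2 difference of 0.91 ± 0.21 with an adjusted p of 0.0196. *Krt26* had 20 and 17 in FNP, 19 and 19 in Mx, 17 and 20 in Md, 8 and 12 in PA2, 9 and 6 in the knockout, 11 and 11 in E12.5 pinna and 12 and 6 in E14.5 pinna. Its FNP, Mx and Md values all lay above those of the other 8 libraries, its log2 difference was -0.85 ± 0.24 and its adjusted p, 0.0498, was at the threshold. *Krt72*, with a difference of 0.38 ± 0.18, and *Krt75*, with 0.62 ± 0.17, had adjusted p-values of 0.272 and 0.0509.

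These 4 calls were not stable to the loss of a library. Leaving out 1 of 14 libraries at a time, between 0 and 4 keratins were called, and none without PA2 replicate 1. With the 6 libraries of each side as a single group, no keratin was called, and the adjusted p was 0.0611 for *Krt71*, 0.063 for *Krt2*, 0.0662 for *Krt73* and 0.0838 for *Krt26*. With pairs beyond 2 Mb removed, 11 keratins were called, 4 higher, all on chromosome 15 (*Krt75*, *Krt71*, *Krt73* and *Krt2*), and 7 lower, all on chromosome 11 (*Krt26*, *Krt28*, *Krt23*, *Krt13*, *Krt15*, *Krt19* and *Krt9*). Over the genome 1172 of 14939 baits (7.85%) were called under that setting, against 721 of 17134. Without Md replicate 1 and E12.5 pinna replicate 2, *Krt71*, *Krt73* and *Krt2* were still called, with *Krt75* and *Krt86*, a hair shaft keratin, while *Krt26* was not, with a limma adjusted p of 0.114. The share over all baits was 4.54% there. Over all 49 keratins the median log2 difference was -0.03, equal to the median over all baits, but it was -0.27 for the chromosome 11 keratins, of which 4 of 25 were above 0, and 0.38 for the chromosome 15 keratins, of which 19 of 24 were above 0. Neighbouring baits share partner fragments, so these genes are not independent. In pinna against PA2 the median was -0.42 on chromosome 11, with 1 of 25 above 0, and 0.05 on chromosome 15, against -0.06 over all baits.

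The additional contacts of *Krt71*, *Krt73* and *Krt2* had partners mainly within the cluster. *Krt71* listed 1 to 7 pairs per FNP, Mx or Md library with the block from *Krt5* to *Krt18*, and 9 to 17 in the 8 second-arch libraries, knockout included. With the flank before *Krt80* it listed 3 to 5 in the former and 3 to 6 in the latter. *Krt2* listed 2 to 8 pairs with the block from *Krt80* to *Krt75* in the FNP, Mx and Md libraries and 6 to 18 in the others, while its pairs with the flank before *Krt80* were 2 to 6 and 2 to 7. *Krt73* listed 1 to 4 pairs with the block from *Krt5* to *Krt18* in the FNP, Mx and Md libraries and 6 to 12 in the others, and 2 to 7 and 1 to 9 with the flank before *Krt80*. The counts with the flank thus overlapped for all 3 baits, and those with the *Krt5* to *Krt18* block, before scaling to list size, did not for *Krt71* and *Krt73*. With the block from *Krt80* to *Krt75*, *Krt71* listed 2 to 9 against 7 to 23 and *Krt73* 2 to 10 against 7 to 13. *Krt2* listed 0 to 3 against 2 to 10 with the block from *Krt5* to *Krt18*. These counts overlapped. The 3 baits were chosen by their totals in the same libraries, so the split by block is only a description. No share over other baits is given. *Krt26* listed 6 to 8 pairs with the right block in FNP, Mx and Md and 0 to 6 in the others.

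For single pairs, limma was fitted to asinh of the score over pairs listed in at least 2 wild-type libraries, 2117 of them with a keratin bait and 281531 in all. Between the 6 *Hoxa2*-expressing libraries (PA2 and pinna) and the 6 *Hox*-negative ones (FNP, Mx and Md) no keratin pair was called, against 0.087% of all pairs, and 112 keratin pairs and 19793 pairs overall had an unadjusted p below 0.05. Between the 4 pinna and the 8 E10.5 wild-type libraries 2 keratin pairs were called, against 0.967% of all pairs. With at least 4 required, 9 of 1124 keratin pairs (0.801%) were called in the pinna comparison, against 3.53% of all pairs, and still none in the other. Without Md replicate 1 and E12.5 pinna replicate 2, 6 of 1910 keratin pairs (0.314%) were called in the pinna comparison, against 1.54% of all pairs, and none in the other. In the pinna comparison the share of keratin pairs called was thus below that of all pairs under each of these settings. In the other comparison the share over all pairs was 0.087%, 0.00895% with at least 4 required and 0.0178% without the 2 libraries. With shares this small, 0 calls among the keratin pairs cannot be told apart from the share over all pairs.

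The first called pair was *Krt23* with the fragment chr11:100201047-100203181, which holds no annotated start site and lies 710 kb away, between the right-block keratins. Its scores were 5.10 and 6.57 in FNP, 13.1 and 11.6 in Mx, 13.1 and 7.95 in Md, 8.82 and 12.8 in PA2, 0 and 5.14 in the knockout, 0 and 0 in E12.5 pinna and 6.04 and 0 in E14.5 pinna. It was listed in every wild-type E10.5 library and in 1 pinna library. The difference of asinh scores was -2.31 ± 0.50 (SE), with a limma adjusted p of 0.0220, or 0.0127 with at least 4 libraries required, and a two-sided exact permutation p of 0.00808 before adjustment. This pair met either filter through the E10.5 libraries, the group in which it was high. The permutation tests of this pair and the next used the same scores after the pairs were called, so they are no further support. The second was *Krt71* with chr15:101540313-101548509, which overlaps the gene of the hair keratin *Krt82*, 197 kb before the bait. It was listed in none of the 8 wild-type E10.5 libraries and not in knockout replicate 1, with scores of 5.75 in knockout replicate 2, 6.73 and 5.58 in E12.5 pinna and 5.76 and 5.41 in E14.5 pinna. The groups did not overlap, though all 5 scores lay close to the listing limit of 5. The difference was 2.47 ± 0.56, with a limma adjusted p of 0.0254 and an exact permutation p of 0.00404, the smallest that 4 libraries against 8 allow. Since its only wild-type listings are the 4 of the pinna, the pair entered the fit through the group in which it was high, and the smaller adjusted p that it had with at least 4 libraries required is no further support.

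The 7 further pairs that passed with at least 4 libraries required had limma adjusted p-values between 0.0300 and 0.0490 there, and between 0.0532 and 0.117 with 2 required. Those lower in the pinna were all on chromosome 11 and joined the left and the right block: *Krt28* with *Krt19*, *Krt10* with *Krt32*, *Krt10* with *Krt13*, and the hair shaft keratin *Krt35* with the start of *A830036E02Rik*. Those higher in the pinna were *Krt20* with chr11:100290988-100299436, *Krt7* with chr15:102008201-102021284 and *Krt5* with chr15:101971113-101971797. The *Krt7* and *Krt5* pairs were listed in the 4 pinna libraries and 1 E10.5 library each. *Krt28* with *Krt19*, *Krt10* with *Krt32* and the *Krt35* pair were listed in no pinna library, and *Krt10* with *Krt13* in 1. The *Krt20* pair was listed in all 14 libraries, with scores from 6.06 to 17.2 and a difference of asinh scores of 0.55 ± 0.17 (SE). The other pairs named here too met the filter through the group in which they were high. All calls under this filter are given as a description. The comparison of pinna with E10.5 tissue and that of second-arch with other tissue share libraries, so their values are not independent.

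The epithelial and mesenchymal genes and the *Krtap* genes gave a frame for these counts. Of 22 epithelial genes, some had too few listed pairs and were not tested, among them the regulators *Trp63* and *Grhl3* and the adhesion genes *Cdh1* and *Epcam*. The other 13, with desmosome genes among them, had enough listed pairs, and none was called by limma in any comparison. Over all baits 4.79% were called between the conditions and 2.54% in pinna against PA2. The median log2 difference of these 13 genes in the second-arch lineage was -0.17, against -0.03 over all baits. All 7 mesenchymal genes were tested, and only *Col1a2*, which encodes a chain of type I collagen, was called between the conditions (limma adjusted p of 0.0206). It was also called in pinna against PA2, where it was lower by a log2 difference of -1.76 (limma adjusted p of 0.0183). The median of the 7 there was 0.01. *Pdgfra* had 0.35, *Vim* 0.28, *Col3a1* 0.14, *Twist1* and *Prrx1* 0.01 each and *Col1a1* -0.38, and none of these was called. Of the *Krtap* genes between the chromosome 11 keratin blocks and elsewhere, 57 had a symbol, 46 a bait and 29 enough listed pairs. Of these 29, 1, *Krtap9-5*, was called between the conditions (limma adjusted p of 0.0356), against the 4.79% of all baits. *Krt6a*, outside the rule by its letter, was not called, and *Krt6b* had no bait.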

How the data were processed

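PCHi-C was performed on 14 libraries, 2 for each of 7 conditions, and groups followed the GEO labels. The authors mapped and filtered reads with HiCUP against mm10, called interactions with CHiCAGO, and deposited 1 list per library of HindIII fragment pairs with a CHiCAGO score of at least 5. No reads or counts of reads were used here, so depth is unknown and no score says how many reads it rests on. Per the labels, bcl2fastq 2.17 was among the tools. The file names of Md replicate 1 and E12.5 pinna replicate 2 mark them as merged, and what was merged is not given in the sources used here.

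Pairs between chromosomes were counted separately. Baits were assigned to genes by GENCODE vM21 start sites. Bait contact numbers were log2 of the listed pairs plus 0.5, divided by the library's same-chromosome total, for baits with a mean of at least 2 listed pairs. These and asinh scores of pairs listed in at least 2 wild-type libraries were fitted with limma 3.58.1 (lmFit, eBayes with trend, R 4.3.3), and p-values were adjusted by Benjamini-Hochberg over all baits or pairs, with a threshold of 0.05. All bait comparisons come from 1 fit of 7 condition means and share libraries. On simulated data the bait fit kept its threshold, whereas the pair fit called too many unchanged pairs when those listed in only 2 or 3 libraries were included, and kept its threshold with at least 4 required. Exact permutation tests used scipy 1.17.1.

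Named in the text were the keratin baits and pairs called in a comparison, the 5 baits with the highest and lowest means, the 10 pairs with the highest medians, textbook partner genes, and genes starting in the partners of named pairs. Other partners, and *Krt25*, *Krt72*, *Krt75* and *Krt86*, were named, and the share of pairs lowest in the knockout was counted, after their values were seen. The members, lists and tests were chosen with earlier results of these data known, and the second-arch lineage comparison was added after the values were seen. The alternatives changed the score threshold, distance limit, weighting, list size, scaling, filter, replicate block and libraries.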

Additional observations from a re-analysis of the deposited data

Results flagged for a closer look

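Of 21 sets of group values screened, a screen in which chance marks about 1 in 20, 1 library stood apart from its group. In E12.5 pinna replicate 2, 69.7% of keratin pairs had a partner inside the clusters, while the other *Hoxa2*-expressing libraries lay between 78.8% and 81.0%. Pairs of a keratin bait with another chromosome, which enter no comparison above, numbered 181 in Md replicate 1 and 284 in E12.5 pinna replicate 2, against 1 to 12 in each of the other 12 libraries. Of 530 such pairs in all, 6 were listed in 2 or more libraries. Both libraries also had the largest shares of pairs between chromosomes over the genome, 46.5% and 62.7%.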

How the results depend on the processing

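Direction was followed only for the 4 baits called in the second-arch lineage comparison, and none reversed in the alternatives that tested them. At a score of at least 10 these baits were not tested. *Krt2*, the single keratin called between the 7 conditions, became 4 keratins with pairs within 2 Mb (7.85% of all baits, against 4.79%), 2 without division by the library total (5.89%), 2 with quantile normalization (5.11%), 2 without a filter (3.75%), 4 with a mean of at least 10 listed pairs (12.7%, added after seeing the data), 2 with the replicate block (6.22%) and 3 without the 2 merged libraries (5.73%). The share over all baits rose with the keratin count except without a filter. Leaving out 1 library at a time gave 0 to 6, with 445 to 1170 baits of the genome, and 0 without knockout replicate 1. At a score of at least 10, 401 baits were called between the conditions. For the knockout against wild-type PA2 the count of 0 became 1 at a score of at least 10 (*Krt42*), and 1, *Krt25*, with pairs within 2 Mb, summed asinh scores, no division by the total, a mean of at least 5 or 10 listed pairs, or the replicate block. Leaving out a library gave 0 to 1. Baits called in that comparison were 98, against 62 at a score of at least 10, 58 with equal list sizes, 222 without division, 58 with a mean of at least 10 and 40 to 143 with a library left out. In pinna against PA2, leaving out a library gave 0 to 1 keratins (*Krt23*, without E12.5 pinna replicate 1) and 65 to 701 baits, and a score of at least 10 gave 215 baits. For PA2 against FNP, Mx and Md and for E14.5 against E12.5 pinna every setting gave 0 keratins. The 4 calls of the second-arch lineage became 1 at a score of at least 10 (*Krt13*, lower, with 333 baits), 11 with pairs within 2 Mb (1172 baits), 0 with 2 group means (77 baits) and 0 to 4 with a library left out (372 to 936 baits). *Krt2* passed in 10, *Krt71* in 7, *Krt73* in 6 and *Krt26* in 2 of the 14 fits without a library, with limma adjusted p-values up to 0.0672, 0.0879, 0.0989 and 0.142. The 2 keratin pairs called in the pinna became 0 at a score of at least 10, 9 with at least 4 libraries required (5133 pairs in all), 1 with quantile normalization, 1 with equal list sizes, 6 without the merged libraries and 2 to 8 with a library left out. Keratin pairs called between *Hoxa2*-expressing and *Hox*-negative libraries stayed at 0, while all pairs called ran from 6 at a score of at least 10, through 13 with at least 4 libraries, 25 with scores capped at 20, 45 without the merged libraries and 162 with equal list sizes, to 423 with quantile normalization. The median contacts of a keratin bait were 1.0 at a score of at least 10, 13.4 with equal list sizes and 18.4 to 19.5 with a library left out. The share inside the clusters was 61.2% at a score of at least 10, and 80.9% at both ends with a library left out. Same-numbered replicates of different conditions had correlations of deviations between -0.07 and 0.16 (median 0.04 over 21 pairs of conditions). Whether they share a batch is not given in the sources used here, and correlations over all baits cannot decide it for single baits. The replicate block gave 1066 baits between the conditions against 820. Scores below 5 were not listed, which limits every count of absent contacts.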
